A study of Mus musculus with 9 samples.

Results

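The enzymes that make, destroy and read out cyclic AMP and cyclic GMP were examined in midbrain dopaminergic neurons of the mouse and in whole midbrain. The set is 49 of the 24487 rows of a table of FPKM (read fragments scaled to transcript length and sequencing depth), taken by a pattern on the gene symbol. It holds 9 membrane adenylyl cyclases and 1 soluble one, 4 subunits of the soluble guanylyl cyclase, 5 receptor guanylyl cyclases, 8 phosphodiesterases that act on both nucleotides, 8 that act on cAMP, 6 assigned to the cGMP families, 4 regulatory and 2 catalytic subunits of protein kinase A (PKA) and 2 cGMP-dependent kinases. Enzymes of these kinds whose symbols follow another pattern, such as the natriuretic peptide receptors Npr1 and Npr2 and the kinase gene Prkx, are outside the set. They are given with the other genes of the pathway. Pde12 is listed there by its symbol alone, and its product is not taken to act on cyclic nucleotides.

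RNA sequencing of total RNA gave 4 libraries labelled as dopaminergic neurons from midbrain and 5 labelled as whole midbrain, all from mice of the C57BL/6 strain, and no treatment is named. How the RNA of dopaminergic neurons was isolated, from which transgenic line, and at what age and sex, is not in the labels. The deposited table carries in its title the word bacTRAP, the usual name for the capture of tagged ribosomes, with the RNA on them, from a single cell type. Whether each library came from its own animals is not stated, so p-values here reflect the spread among these libraries alone, which may be technical.

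The dopaminergic label was matched by its markers: the summed FPKM of Th, Slc6a3, Slc18a2, Ddc and Drd2 was 3785 to 4182 in the dopaminergic libraries and 210.3 to 242.9 in whole midbrain. Of the 39 tested markers of other cell types, 38 were lower in the dopaminergic libraries and 1, Chat, did not differ by the test. The 5 oligodendrocyte markers summed to 122 to 217 FPKM in dopaminergic libraries against 2587 to 3035 FPKM in whole midbrain. The dopaminergic sums were also the lower ones for the 5 astrocyte markers (5.41 to 8.90 FPKM against 133.4 to 150.8), the 5 microglial markers (2.39 to 4.95 against 72.4 to 89.8), the 4 endothelial markers (0.48 to 1.52 against 47.2 to 86.2) and the 4 mural-cell markers (1.51 to 2.44 against 51.6 to 69.7). Whole midbrain contains dopaminergic neurons as well, and in such bulk samples fewer cells of a type and less RNA per cell cannot be told apart. Depth was estimated from single-exon genes, as the lowest FPKM, multiplied by an assumed effective transcript length in kilobases, that at least 4 genes shared to within 1%, taken as that of 1 read. It was 0.0158 to 0.0207 in the dopaminergic libraries and 0.0292 to 0.0607 in whole midbrain, so by this rough measure, which rests on 4 to 9 genes in each library, the dopaminergic libraries were the deeper ones. Whole midbrain library 2 stood apart, with correlations of 0.962 to 0.963 with the other libraries of its group, which correlated at 0.980 to 0.986 with one another. The counts of members, and the values of most members for which it lay far from its group, are given with and without it.

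Adenylyl cyclases turn ATP into cAMP under the control of stimulatory and inhibitory G proteins, to which the dopamine receptors and many others couple, and guanylyl cyclases make cGMP in answer to nitric oxide or to peptides. Phosphodiesterases hydrolyse both messengers. PKA is a tetramer of regulatory and catalytic subunits whose catalytic subunits are set free when cAMP binds the regulatory ones, and in dopaminergic neurons the D2 autoreceptor, encoded by Drd2, couples to inhibitory G proteins that lower cAMP.

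The receptor guanylyl cyclase gene Gucy2c, the phosphodiesterase gene Pde2a and the PKA catalytic subunit gene Prkaca were the members most above whole midbrain in dopaminergic neurons, and the 3 measured subunits of the soluble guanylyl cyclase and 5 of 8 membrane adenylyl cyclases were lower there. As FPKM, both catalytic and all 4 regulatory PKA subunit genes were higher in dopaminergic neurons, of which Prkaca and Prkar1b remained so after rescaling to TPM. Of the 49 genes, 37 averaged 1 FPKM or more across the 9 libraries and were tested with limma on log2(FPKM + 1), with Benjamini-Hochberg adjustment over all 13106 such genes. At an adjusted p under 0.05, 15 members were higher in dopaminergic neurons (40.5% of those tested, beside 38.3% of all genes tested) and 19 were lower (51.4%, beside 36%). At least 2-fold, 5 were higher (13.5%, beside 15.1%) and 6 lower (16.2%, beside 16.7%). The libraries of the groups did not overlap for 31 members (83.8%, beside 64.4%). The shares at 2-fold, and that of higher members, were thus near those of all genes. Without whole midbrain library 2 the counts were again 15 and 19, beside 43.1% and 38.8% of all genes, and no member's call changed. At least 2-fold, 5 members were then higher (13.5%) and 8 lower (21.6%), and the shares of all genes at 2-fold are not given for that setting. The median difference was -0.25 over the members and 0.04 over all genes tested, on the log2 scale. Fold changes on this scale understate the change of genes with low FPKM.

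**Figure D1:**
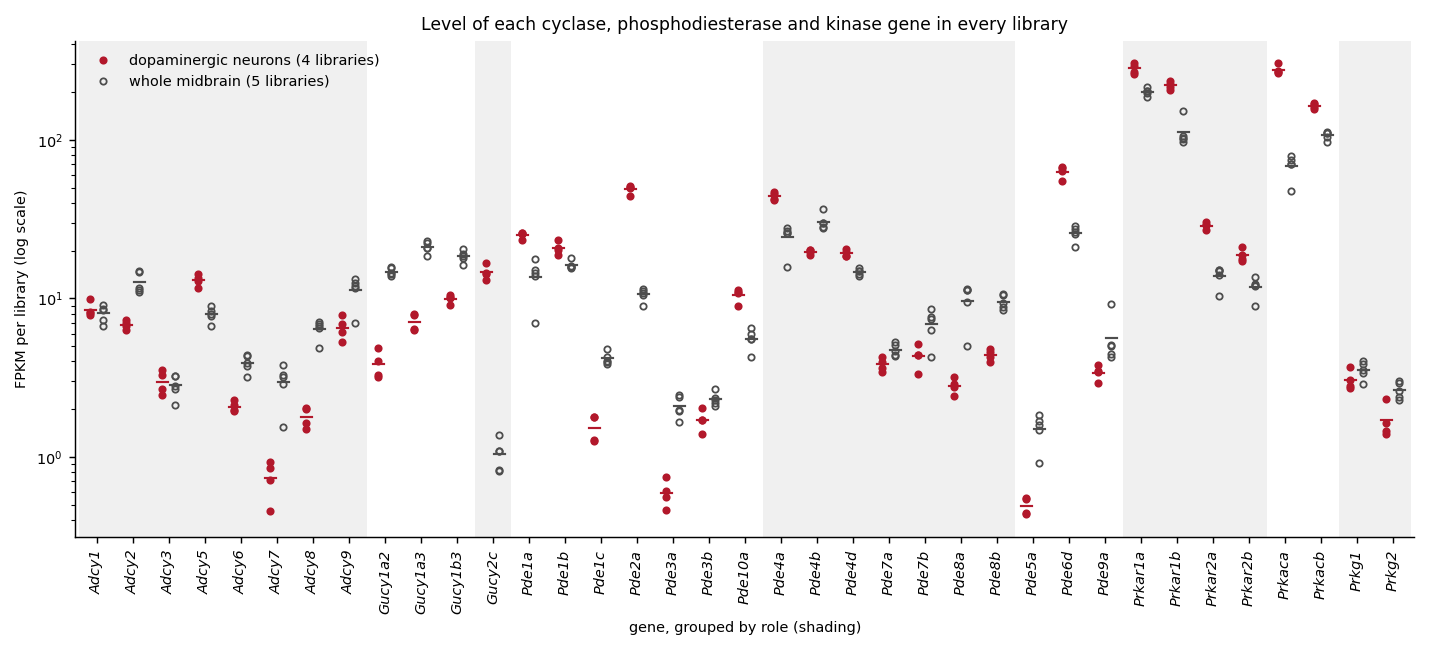
FPKM of the 37 tested members in every library on a log axis, with filled points for the 4 dopaminergic libraries, open points for the 5 whole midbrain libraries and a short line at each group mean. The PKA subunit genes Prkar1a, Prkar1b, Prkaca and Prkacb lie above the other members in both groups, and Gucy2c and Pde2a show the clearest separation with the dopaminergic libraries above.

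How the values are scaled mattered for the smaller differences. A dopaminergic library held 506466 to 521822 FPKM in all, against 309275 to 313252 for whole midbrain libraries other than library 2, which held 409130. Rescaling every library to the same total (TPM) therefore moved the median difference of all genes to -0.55, and quantile normalization moved it to 0.11. As TPM, 5 members were higher (13.5%, beside 17.2% of all genes) and 22 lower (59.5%, beside 56.4%), so these shares too were near those of all genes. With a minimum mean of 5 FPKM, 25 members were tested, of which 15 were higher (beside 48.2% of all 8669 genes then tested) and 9 lower (beside 28.8%). At 2-fold, 3 members were higher and 17 lower as TPM (8.11% and 45.9%, beside 6% and 33.3% of all genes), 3 were higher with quantile normalization (beside 12.3%), 3 were lower with the minimum of 5 FPKM (beside 12.3%) and 2 were lower with a pseudocount of 5 FPKM (beside 6.07%). The 5 that were higher under TPM were Gucy2c, Pde2a, Prkaca, Pde6d and Prkar1b, and relative to the median of all genes under TPM they differed by 3.38, 2.08, 1.93, 1.19 and 0.91. Members whose direction turned under a scaling are named with their values below.

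**Figure D2:**
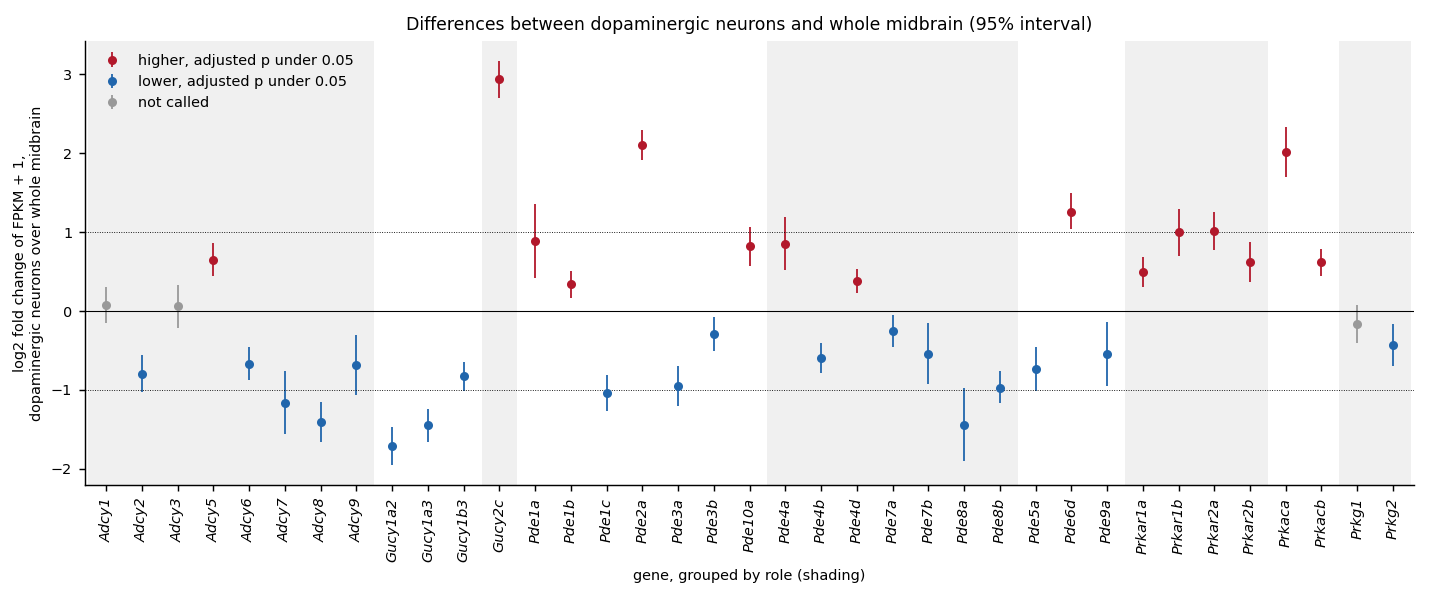
Log2 fold change of FPKM + 1, dopaminergic neurons over whole midbrain, for the 37 tested members grouped by role, with 95% intervals from limma. Dotted lines mark 2-fold, and the members run from 2.94 for Gucy2c to -1.71 for Gucy1a2. The 3 grey members did not pass the threshold, and the sign of Pde1b, Pde4d, Prkar1a, Prkacb, Pde3b, Pde7a and Prkg2 turned under TPM or quantile normalization.

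Among the membrane adenylyl cyclases, Adcy5 was the most abundant in dopaminergic neurons, whereas Adcy2 and Adcy9 were the most abundant in whole midbrain. Adcy5 was higher in dopaminergic neurons, Adcy2, Adcy6, Adcy7, Adcy8 and Adcy9 were lower, and Adcy1 and Adcy3 did not pass the test, while as TPM Adcy5 differed by 0.07 (adjusted p = 0.683) and the other 7 were lower. Of all genes tested, 36% were lower as FPKM and 56.4% as TPM. Relative to the median of all genes under TPM, Adcy1 was at 0.01 and Adcy3 at 0.05. The summed FPKM of the class was 42.5 ± 3.17 in dopaminergic neurons and 56.9 ± 5.78 in whole midbrain (SD, n = 4 and 5).

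Adcy5 encodes a cyclase inhibited by calcium and by inhibitory G proteins (chromosome 16, 35155636 to 35304549, mm10). It had 11.6, 12.8, 14.3 and 13.4 FPKM in the dopaminergic libraries, against 7.94, 6.66, 9.01, 7.74 and 8.29 FPKM in whole midbrain. All 4 dopaminergic values were above all 5 of whole midbrain, a log2 fold change of 0.65 (SE 0.09, adjusted p = 9.8e-05). Adcy5 made up 30.7% ± 0.845 of the membrane cyclase FPKM for dopaminergic neurons and 13.9% ± 0.541 for whole midbrain, and rescaling a library to TPM leaves these shares as they are. Adcy5 is also known as the main cyclase of striatal projection neurons, some of which send axons to the midbrain. The 3 tested markers of those neurons (Penk, Tac1 and Rgs9) were lower in the dopaminergic libraries. With Adora2a, the 4 markers summed to 16.4 to 26.1 FPKM there, against 69.9 to 146.9 FPKM in whole midbrain. Adora2a reached at most 0.0459 FPKM in a dopaminergic library. Drd1, also listed as a marker, had no row among the deposited values. The listed markers are of striatal projection neurons in general and do not single out those with axons in the midbrain. Whether RNA of those axons contributes to the Adcy5 values was not tested.

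Adcy8, one of the cyclases stimulated by calcium and calmodulin, had 1.65, 1.99, 2.04 and 1.49 FPKM in the dopaminergic libraries, against 6.68, 4.85, 6.495, 7.09 and 6.94 FPKM in whole midbrain. The groups were apart, and the lowest whole midbrain value was that of library 2. Its log2 fold change was -1.41 (SE 0.12, adjusted p = 1.7e-06), a 3.58-fold lower mean FPKM, and it was -1.49 without that library. Adcy1, the other calcium-stimulated cyclase of the brain, averaged 8.49 ± 0.933 FPKM in dopaminergic neurons and 8.04 ± 0.979 FPKM in whole midbrain, with overlapping groups and a log2 fold change of 0.07 (SE 0.10, adjusted p = 0.533), which became -0.54 as TPM (adjusted p = 0.0114) and 0.48 with a length correction (adjusted p = 0.00042).

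Adcy7, a cyclase known from blood and immune cells as well as neurons, showed 0.455, 0.717, 0.852 and 0.927 FPKM in the dopaminergic libraries, compared with 3.199, 1.55, 3.82, 2.88 and 3.29 FPKM in whole midbrain. Every dopaminergic library was below 1 FPKM and every whole midbrain library above it. Its log2 fold change was -1.16 (SE 0.18, adjusted p = 0.00019), and the microglial markers were lower as well, but their part in the difference was not tested. Adcy2, a cyclase stimulated by G protein beta-gamma subunits, had 6.36, 6.66, 7.26 and 7.01 FPKM in the dopaminergic libraries, against 11.3, 14.9, 14.8, 11.5 and 11.04 FPKM in whole midbrain. The groups did not overlap, and the log2 fold change was -0.80 (SE 0.11, adjusted p = 5.9e-05). Adcy2 shares 189 exonic bases with the antisense gene Gm35161, and whether the counting used strand is not given, so reads of either strand cannot be told apart there.

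Adcy6 averaged 2.08 ± 0.152 FPKM in dopaminergic neurons and 3.92 ± 0.477 FPKM in whole midbrain, with a log2 fold change of -0.67 (SE 0.09, adjusted p = 9.3e-05), and it shares 605 exonic bases with an antisense gene. Adcy9, the cyclase least sensitive to forskolin, averaged 6.53 ± 1.06 FPKM in dopaminergic neurons and 11.3 ± 2.49 FPKM in whole midbrain, with a log2 fold change of -0.69 (SE 0.17, adjusted p = 0.00428). Its groups overlapped through whole midbrain library 2, which had 6.97 FPKM while the other whole midbrain libraries had 11.7 to 13.3, and without it the log2 fold change was -0.84. Adcy3, known from olfactory neurons and neuronal cilia, averaged 2.99 ± 0.498 FPKM in dopaminergic neurons and 2.83 ± 0.455 FPKM in whole midbrain. Its log2 fold change of 0.06 (SE 0.12, adjusted p = 0.671) was 0.45 with quantile normalization, past the threshold (adjusted p = 0.0102), and turned to -0.50 as TPM (adjusted p = 0.0348) and to just below 0 without dopaminergic library 3 or whole midbrain library 2, and its exons share 1380 bases with Cenpo on the opposite strand.

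**Figure D3:**
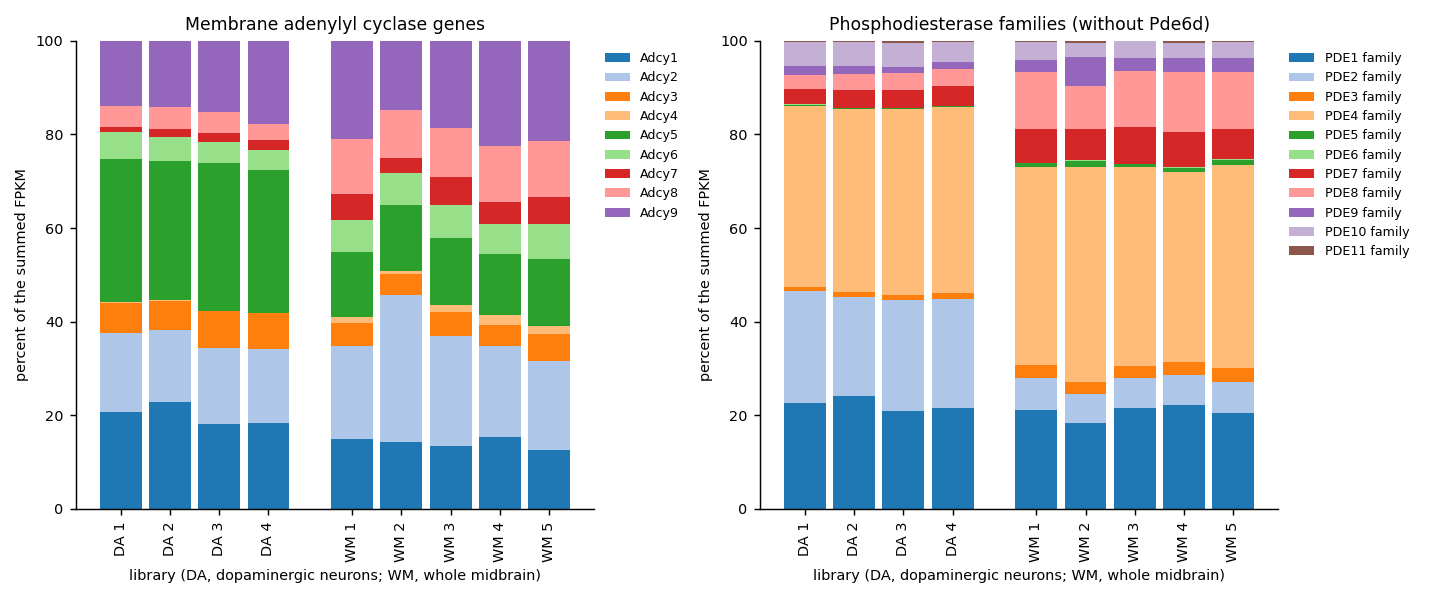
Percent of summed FPKM per library, on the left for the 9 membrane adenylyl cyclase genes and on the right for the phosphodiesterase families without Pde6d, with the 4 dopaminergic libraries (DA) left of the 5 whole midbrain libraries (WM). Adcy5 takes 29.7 to 31.8% in the dopaminergic libraries and 13.0 to 14.4% in whole midbrain, and the PDE2 family takes 21.1 to 23.9% and 6.17 to 6.82%.

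All 3 measured subunits of the soluble guanylyl cyclase, the heterodimeric receptor of nitric oxide, were lower in dopaminergic neurons under every scaling that was tried. Their summed FPKM was 20.96 ± 1.3 in dopaminergic neurons and 54.4 ± 0.95 in whole midbrain (SD, n = 4 and 5). The log2 fold changes of the alpha subunit genes were more negative than that of the beta subunit with which they pair.

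Gucy1a2, the alpha-2 subunit gene, had 4.05, 4.88, 3.19 and 3.295 FPKM in the dopaminergic libraries, against 14.2, 15.8, 14.5, 15.5 and 13.9 FPKM in whole midbrain. The highest dopaminergic value was well under the lowest of whole midbrain, and the log2 fold change was -1.71 (SE 0.11, adjusted p = 2.5e-07), a 3.83-fold lower mean. Gucy1a3, the alpha-1 subunit gene that newer annotation calls Gucy1a1, had 6.32, 7.91, 6.43 and 7.799 FPKM in the dopaminergic libraries, compared with 23.1, 22.4, 20.7, 20.9 and 18.4 FPKM in whole midbrain. These groups did not overlap either, and the log2 fold change was -1.45 (SE 0.09, adjusted p = 3.3e-07). Gucy1b3, the beta-1 subunit gene now called Gucy1b1, showed 10.2, 9.99, 10.5 and 9.03 FPKM in the dopaminergic libraries, against 17.9, 16.4, 19.1, 18.6 and 20.4 FPKM in whole midbrain. The groups were apart here too, with a log2 fold change of -0.83 (SE 0.08, adjusted p = 5.6e-06).

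The FPKM of the pair of alpha subunits divided by that of Gucy1b3 was 0.913 to 1.28 in the dopaminergic libraries and 1.58 to 2.34 in whole midbrain, without overlap. The genes of the main alpha and beta subunits are neighbours on chromosome 3 (Gucy1b3 at 82032004 to 82074711 and Gucy1a3 at 82092427 to 82145877, both on the minus strand). Soluble guanylyl cyclase is also known from mural cells, whose 4 markers were all lower in the dopaminergic libraries (sums given above), and their part in the difference was not tested. The fourth subunit gene, Gucy1b2, reached at most 0.110 FPKM in any library.

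Gucy2c was the tested member with the largest log2 fold change. It encodes the receptor guanylyl cyclase for the peptides guanylin and uroguanylin, best known from the intestine and also described in midbrain dopaminergic neurons (chromosome 6, 136697284 to 136781742, minus strand). It had 16.6, 13.1, 14.5 and 14.2 FPKM in the dopaminergic libraries, against 1.08, 1.38, 1.09, 0.83 and 0.818 FPKM in whole midbrain. Every dopaminergic library was above 13 FPKM and every whole midbrain library below 1.4 FPKM. The log2 fold change was 2.94 (SE 0.11, adjusted p = 8e-09), and the mean FPKM was 14.0-fold higher. Among all 13106 genes tested this was the 51st largest log2 fold change. It remained called under each of the 18 alternatives, between 1.70 and 3.71.

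The other receptor guanylyl cyclases of the set were low. Gucy2e, known from the retina, had 0.122, 0.225, 0.269 and 0.145 FPKM in the dopaminergic libraries, compared with 1.12, 0.994, 1.25, 1.29 and 0.961 FPKM in whole midbrain. It was lower in each dopaminergic library than in any of whole midbrain but did not reach the minimum mean for a test. Gucy2d and Gucy2g, known from olfactory organs of the mouse, and Gucy2f, known from photoreceptors, did not exceed 0.43 FPKM in any library. Gucy2c therefore made up 97.5% ± 0.846 of the FPKM of the 5 receptor cyclases of the set in dopaminergic neurons and 39.9% ± 6.91 in whole midbrain. These shares leave out Npr1 and Npr2, which are outside the set. Npr2 averaged 1.91 FPKM in dopaminergic neurons and 7.21 FPKM in whole midbrain, where it was above Gucy2c.

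Of the phosphodiesterases that hydrolyse both nucleotides, Pde2a, Pde1a, Pde1b and Pde10a were higher in dopaminergic neurons and Pde1c, Pde3a and Pde3b lower. Their summed FPKM was 109.5 ± 1.84 in dopaminergic neurons and 55.0 ± 6.02 in whole midbrain. As TPM, Pde2a alone of the 4 remained higher, at 1.53, while Pde1a and Pde10a were at 0.29 and 0.27 and Pde1b turned to -0.28, none of these 3 past the threshold.

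Pde2a encodes a phosphodiesterase that cGMP itself activates, so that cGMP can lower cAMP through it (chromosome 7, 101421691 to 101512829). It had 50.4, 44.2, 50.8 and 49.5 FPKM in the dopaminergic libraries, against 11.5, 8.996, 10.6, 10.9 and 11.1 FPKM in whole midbrain. All dopaminergic libraries were above 44 FPKM and no whole midbrain library exceeded 11.5. On the log2 scale the difference was 2.1 (SE 0.08, adjusted p = 1.4e-08), a 4.6-fold higher mean, and ranged from 1.53 to 2.19 over the alternatives. A gene model on the same strand, Gm45837, shares 3955 exonic bases with Pde2a, and how the authors' counting divided reads between them is not given. The PDE2 family took 23.0% ± 1.25 of all phosphodiesterase FPKM for dopaminergic neurons and 6.49% ± 0.259 for whole midbrain, where Pde6d, which encodes no catalytic subunit, is left out.

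The calcium- and calmodulin-activated PDE1 genes went different ways. Pde1b, the most abundant member of this class in whole midbrain, had 20.8, 23.2, 20.1 and 18.8 FPKM in the dopaminergic libraries, against 15.8, 15.9, 17.9, 15.7 and 15.4 FPKM in whole midbrain. The groups were apart by a narrow margin, with a log2 fold change of 0.34 (SE 0.08, adjusted p = 0.00286) that fell to 0.14 with quantile normalization (adjusted p = 0.167). Pde1c had 1.26, 1.28, 1.77 and 1.796 FPKM in the dopaminergic libraries, compared with 4.803, 3.84, 4.05, 4.28 and 3.98 FPKM in whole midbrain. All dopaminergic values were under 2 FPKM and all whole midbrain values above 3.8, and the log2 fold change was -1.04 (SE 0.10, adjusted p = 6.7e-06). Pde1a averaged 25.1 ± 1.13 FPKM in dopaminergic neurons and 13.6 ± 4.01 FPKM in whole midbrain, with a log2 fold change of 0.89 (SE 0.21, adjusted p = 0.00312), and whole midbrain library 2 had 6.94 FPKM while the others of its group had 13.9 to 17.7. Without that library the log2 fold change of Pde1a was 0.69 (adjusted p = 7.6e-06).

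Pde10a, a phosphodiesterase known for its high level in striatal projection neurons, averaged 10.5 ± 1.05 FPKM in dopaminergic neurons and 5.57 ± 0.841 FPKM in whole midbrain. Its log2 fold change was 0.82 (SE 0.11, adjusted p = 7.9e-05). The tested markers of those neurons were lower, as given above, and the part of those neurons in the Pde10a values was not tested. Pde3a and Pde3b, which cGMP inhibits, averaged 0.596 ± 0.1195 FPKM in dopaminergic neurons and 2.09 ± 0.336 FPKM in whole midbrain for Pde3a and 1.72 ± 0.263 FPKM in dopaminergic neurons and 2.31 ± 0.223 FPKM in whole midbrain for Pde3b. The log2 fold change of Pde3a was -0.95 (SE 0.11, adjusted p = 2.4e-05), and 741 of its exonic bases lie opposite an antisense gene. That of Pde3b was -0.29 (SE 0.10, adjusted p = 0.0207), lost its call without dopaminergic library 1 (adjusted p = 0.0627) and with a length correction (-0.03, adjusted p = 0.836), and turned to 0.21 with quantile normalization (adjusted p = 0.0705). Pde11a stayed between 0.206 and 0.851 FPKM over all libraries.

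Among the cAMP-specific phosphodiesterases, Pde4a and Pde4d were higher in dopaminergic neurons and Pde4b, Pde7a, Pde7b, Pde8a and Pde8b lower, and the class sum was 98.7 ± 3.32 FPKM for dopaminergic neurons and 100.7 ± 6.14 for whole midbrain. The leading gene of the class was Pde4a in dopaminergic neurons and Pde4b in whole midbrain. Under TPM neither Pde4a (0.23, adjusted p = 0.361) nor Pde4d (-0.24, adjusted p = 0.0992) passed the threshold.

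Pde4a had 41.9, 42.1, 46.95 and 45.6 FPKM in the dopaminergic libraries, against 26.02, 15.7, 26.8, 25.9 and 27.8 FPKM in whole midbrain. The dopaminergic values were all above 41 FPKM, and whole midbrain library 2 was far below the rest of its group. The dopaminergic libraries were higher by a log2 fold change of 0.85 (SE 0.15, adjusted p = 0.00048), and by 0.71 without library 2. Pde4b, whose product like that of Pde4a is a target of the inhibitor rolipram, had 19.7, 18.9, 20.3 and 20.1 FPKM in the dopaminergic libraries, compared with 30.04, 36.6, 28.1, 27.7 and 29.7 FPKM in whole midbrain. Here the order was reversed, with all dopaminergic values under all of whole midbrain, and the log2 fold change was -0.59 (SE 0.09, adjusted p = 0.00013). With a length correction it was -0.27 (adjusted p = 0.0759). Pde4a took 44.7% ± 1.15 of the class in dopaminergic neurons and 24.1% ± 3.75 in whole midbrain, and Pde4b took 20.01% ± 0.545 and 30.5% ± 5.84.

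Pde8a, a phosphodiesterase of high affinity for cAMP that is insensitive to the common inhibitor IBMX, had 2.41, 3.2, 2.78 and 2.88 FPKM in the dopaminergic libraries, against 11.3, 5.01, 9.44, 11.3 and 11.4 FPKM in whole midbrain. The highest dopaminergic value was below whole midbrain library 2, which in turn was under the 9.44 to 11.4 FPKM of the other whole midbrain libraries. The log2 fold change was -1.44 (SE 0.21, adjusted p = 0.0001), and -1.64 without library 2. Its relative Pde8b averaged 4.39 ± 0.363 FPKM in dopaminergic neurons and 9.55 ± 1.01 FPKM in whole midbrain, with a log2 fold change of -0.97 (SE 0.09, adjusted p = 4.5e-06), and shares 447 exonic bases with an antisense gene. The PDE8 family held 3.40% ± 0.259 of phosphodiesterase FPKM for dopaminergic neurons and 11.7% ± 1.45 for whole midbrain.

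The remaining cAMP phosphodiesterases differed little. Pde4d averaged 19.4 ± 0.971 FPKM in dopaminergic neurons and 14.7 ± 0.6603 FPKM in whole midbrain, with a log2 fold change of 0.38 (SE 0.07, adjusted p = 0.00042). Pde7a averaged 3.83 ± 0.379 FPKM in dopaminergic neurons and 4.75 ± 0.433 FPKM in whole midbrain and Pde7b 4.33 ± 0.756 FPKM in dopaminergic neurons and 6.85 ± 1.68 FPKM in whole midbrain. The log2 fold changes were -0.25 (SE 0.09, adjusted p = 0.0251) for Pde7a and -0.54 (SE 0.17, adjusted p = 0.0173) for Pde7b. Pde7a lost its call without dopaminergic library 1 or 2 or whole midbrain library 4 (adjusted p = 0.0619, 0.0755 and 0.0594) and was at 0.02 with quantile normalization and -0.06 with a length correction (adjusted p = 0.835 and 0.639). Pde7b lost its call without dopaminergic library 1 (adjusted p = 0.0569), with quantile normalization (-0.34, adjusted p = 0.146) and with a length correction (-0.14, adjusted p = 0.401). Pde4c did not exceed 0.642 FPKM in any library.

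In the cGMP families the one gene that was higher, Pde6d, is named for its copurification with the photoreceptor enzyme and encodes a carrier of prenylated proteins to membranes and cilia. It had 63.4, 55.03, 67.5 and 66 FPKM in the dopaminergic libraries, against 27.4, 21.01, 28.6, 26.3 and 25.3 FPKM in whole midbrain. Each dopaminergic library had at least 55.0 FPKM and no whole midbrain library more than 28.6, and the log2 fold change was 1.26 (SE 0.10, adjusted p = 1.5e-06). The photoreceptor catalytic subunits Pde6a, Pde6b and Pde6c, which retinal rods and cones use, reached at most 0.207 FPKM in any library.

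Both tested hydrolytic enzymes of these cGMP families were lower as deposited, and neither was called with quantile normalization. Pde5a, the target of sildenafil, averaged 0.493 ± 0.0622 FPKM in dopaminergic neurons and 1.496 ± 0.353 FPKM in whole midbrain, with a log2 fold change of -0.73 (SE 0.13, adjusted p = 0.00043) that was -0.01 with quantile normalization (adjusted p = 0.932). Pde9a, the phosphodiesterase of highest affinity for cGMP, averaged 3.4 ± 0.367 FPKM in dopaminergic neurons and 5.61 ± 2.06 FPKM in whole midbrain, with a log2 fold change of -0.54 (SE 0.18, adjusted p = 0.0201). Its whole midbrain mean was raised by library 2, with 9.23 FPKM beside 4.26 to 5.09 in the others, and without it the log2 fold change was -0.37 (adjusted p = 0.00262). Its call was lost without dopaminergic library 3 (adjusted p = 0.0589), with quantile normalization (-0.27, adjusted p = 0.213) and without a filter on low values (adjusted p = 0.0534). Pde9a shares 138 and 157 exonic bases with 2 antisense gene models.

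The 6 genes of PKA, the kinase that answers cAMP, were all higher in dopaminergic neurons as FPKM, and 2 of them, Prkaca and Prkar1b, also as TPM. Summed FPKM of the regulatory subunits was 550.3 ± 27.5 in dopaminergic neurons and 337.8 ± 27.6 in whole midbrain, and that of the catalytic subunits was 440.1 ± 16.6 and 175.2 ± 17.0 (SD, n = 4 and 5). Every one of the 6 genes had its 4 dopaminergic values above its 5 whole midbrain values. Of all genes tested, 64.4% had groups that did not overlap, in either direction. Of the same genes, 38.3% were called higher as FPKM and 17.2% as TPM. As TPM, Prkaca (1.38) and Prkar1b (0.36) remained higher, while Prkar2a (0.41), Prkar2b (0.02), Prkacb (-0.02) and Prkar1a (-0.15) did not pass the threshold, and with quantile normalization Prkar1a was lower at -0.41 (adjusted p = 0.00647) and Prkacb was at -0.15 (adjusted p = 0.319).

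Prkaca encodes the catalytic subunit C-alpha (chromosome 8, 83972978 to 83996442, plus strand). It had 262, 267, 303 and 270.0 FPKM in the dopaminergic libraries, against 79.1, 47.5, 70.8, 70.04 and 74.8 FPKM in whole midbrain. The lowest dopaminergic value was 3.32 times the highest of whole midbrain, in which library 2 was lowest. This was a log2 fold change of 2.01 (SE 0.14, adjusted p = 5.7e-07), a 4.03-fold higher mean, and it kept its call under each alternative, between 1.26 and 2.07, and at 1.89 without library 2. Prkacb, the C-beta gene, had 170.4, 169, 161 and 157 FPKM in the dopaminergic libraries, compared with 104, 97.4, 112, 111 and 109.8 FPKM in whole midbrain. Here the groups were closer but apart, with a log2 fold change of 0.62 (SE 0.08, adjusted p = 3.2e-05).

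The catalytic genes thus changed rank. Prkaca took 62.6% ± 2.13 of catalytic FPKM for dopaminergic neurons and 38.8% ± 3.83 for whole midbrain. Prkaca divided by Prkacb was 1.54 to 1.88 in the dopaminergic libraries and 0.488 to 0.761 in whole midbrain. Catalytic over regulatory FPKM was 0.737 to 0.856 in dopaminergic neurons and 0.376 to 0.582 in whole midbrain, where the lowest value was that of library 2 and the next was 0.545. Rescaling a library to TPM leaves these ratios as they are, which does not hold for quantile normalization, and they describe messages, not protein.

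Among the regulatory subunits, the type I genes held 91.4% ± 0.338 of the FPKM for dopaminergic neurons and 92.3% ± 1.54 for whole midbrain. Prkar1a, the widely expressed RI-alpha gene, had 304, 293, 269.9 and 261 FPKM in the dopaminergic libraries, against 186, 214, 203, 202 and 197 FPKM in whole midbrain. The groups were apart, with a log2 fold change of 0.49 (SE 0.08, adjusted p = 0.00041), and the direction turned under the 2 scalings named above. Prkar2a, the RII-alpha gene whose product binds A-kinase anchoring proteins, had 27.1, 30.2, 28.9 and 29.01 FPKM in the dopaminergic libraries, compared with 15.03, 10.4, 14.1, 14.8 and 15.2 FPKM in whole midbrain. All dopaminergic values were above 27 FPKM and no whole midbrain value was above 15.2, for a log2 fold change of 1.01 (SE 0.11, adjusted p = 1.3e-05).

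Prkar1b, the RI-beta gene known from neurons, averaged 221 ± 12.3 FPKM in dopaminergic neurons and 112 ± 22.8 FPKM in whole midbrain, with a log2 fold change of 1.0 (SE 0.13, adjusted p = 5.8e-05), and whole midbrain library 2 stood at 151.9 FPKM beside 96.6 to 105.4 in the others of its group. Without it the log2 fold change of Prkar1b was 1.11. Over all 18 alternatives Prkar1b ranged from 0.18 to 1.11, with a largest adjusted p of 0.0492, close to the threshold. It shares 341 exonic bases with Gm15672 on the same strand. Prkar2b, the RII-beta gene, averaged 18.7 ± 1.67 FPKM in dopaminergic neurons and 11.8 ± 1.71 FPKM in whole midbrain, with a log2 fold change of 0.62 (SE 0.11, adjusted p = 0.00054).

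**Figure D4:**
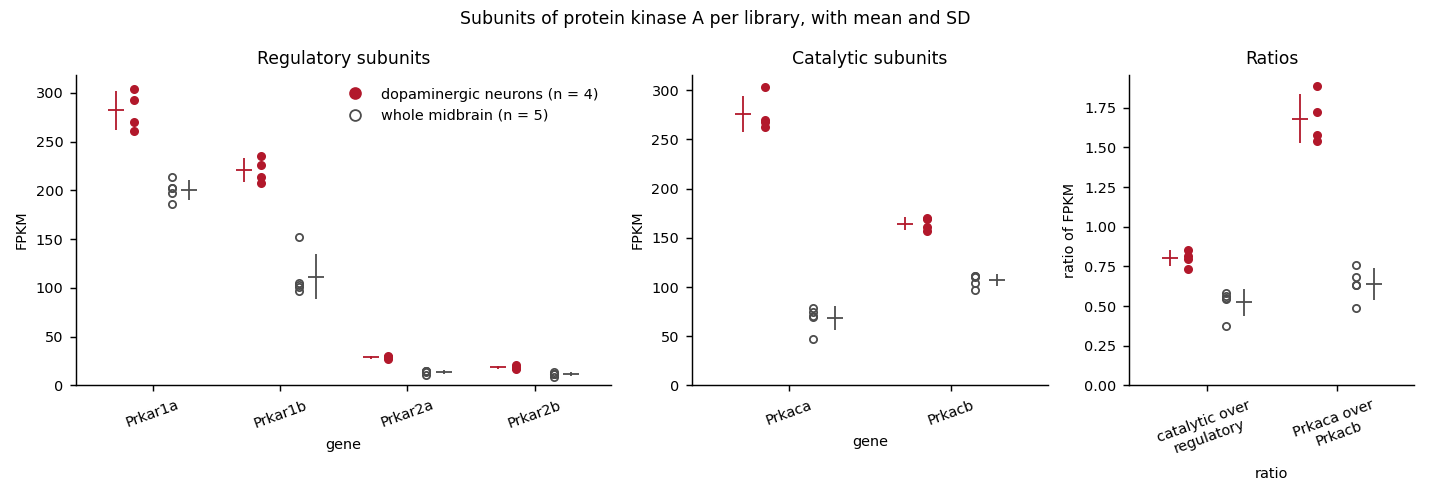
FPKM of the PKA regulatory and catalytic subunit genes per library, and ratios of FPKM within each library, with the mean and SD beside the points (filled, 4 dopaminergic libraries; open, 5 whole midbrain libraries). Prkaca is at 262.3 to 303 FPKM in dopaminergic neurons and 47.5 to 79.1 FPKM in whole midbrain; the separation of Prkar1a and Prkacb turned in direction under TPM and quantile normalization.

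The regulatory subunits hold the catalytic ones through a short stretch that occupies the kinase's active site. In type I subunits this stretch is a pseudosubstrate that cannot be phosphorylated, and in type II subunits it is a true substrate with a serine. The PKA inhibitor proteins use a stretch of the same kind. These sites are shown because the higher genes include both types and also Pkia and Pkig. The coding sequences below are from GENCODE M21 transcripts (GRCm38, the assembly also called mm10), with the 5 codons of the site in capitals and 5 codons on each side.
Prkar1a: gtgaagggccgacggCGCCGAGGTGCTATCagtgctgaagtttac
Prkar1b: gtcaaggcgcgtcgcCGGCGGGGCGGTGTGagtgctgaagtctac
Prkar2a: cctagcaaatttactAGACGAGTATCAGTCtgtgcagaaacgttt
Prkar2b: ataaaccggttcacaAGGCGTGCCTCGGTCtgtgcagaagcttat
Pkia: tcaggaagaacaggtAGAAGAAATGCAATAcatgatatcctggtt
Pkig: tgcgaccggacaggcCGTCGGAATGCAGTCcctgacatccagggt
In each site the fourth codon is the position that a substrate would have phosphorylated: it reads GCT in Prkar1a, GGT in Prkar1b, TCA in Prkar2a, TCG in Prkar2b and GCA in Pkia and Pkig. It is codon 99 of the open reading frame in both type I genes, codon 97 in Prkar2a, 112 in Prkar2b and 22 in both inhibitor genes.

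Since cAMP acts on transcription through CREB, whose binding element has the letters TGACGTCA, the members' promoters were searched for it on both strands in RefSeq windows of 250 bases before and 50 from the start on (GRCm38.p6). Of 79 promoter windows of 39 members, 2 held the full element (2.53%), both of Prkar1a, beside 1.79% of all 32851 windows. These 2 windows overlap and hold the same copy of the element, so a single site is counted in each. The shorter TGACG, which the full element contains, was in 18 windows of 16 members (22.8%), beside 20.8% of all windows, so the shares were close. The windows of Prkar1a and of Prkaca, the subunit gene with the largest difference, are printed, with the full element in capitals in Prkar1a and TGACG in capitals in Prkaca. In Prkar1a (chr11:109650699-109650998, plus strand) the full element begins 49 bases before the start, and in Prkaca (chr8:83972728-83973027, plus strand) TGACG stands on the opposite strand, so that it reads CGTCA here, 120 and 6 bases before the start.
Prkar1a: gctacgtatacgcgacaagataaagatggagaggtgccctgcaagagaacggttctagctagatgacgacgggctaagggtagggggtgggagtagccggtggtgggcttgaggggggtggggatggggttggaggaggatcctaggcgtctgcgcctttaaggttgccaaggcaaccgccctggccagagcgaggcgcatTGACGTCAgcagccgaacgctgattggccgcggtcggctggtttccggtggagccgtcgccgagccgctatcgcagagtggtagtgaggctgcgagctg
Prkaca: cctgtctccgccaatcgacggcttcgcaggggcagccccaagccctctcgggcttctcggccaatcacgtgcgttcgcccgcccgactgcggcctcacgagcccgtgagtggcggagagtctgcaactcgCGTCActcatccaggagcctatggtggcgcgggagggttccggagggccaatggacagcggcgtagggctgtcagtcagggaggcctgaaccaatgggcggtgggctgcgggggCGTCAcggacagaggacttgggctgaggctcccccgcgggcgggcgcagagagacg
A match is a description of the letters and not a measured binding site.

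The cGMP-dependent kinases were low in both groups. Prkg1, the type I kinase gene known from smooth muscle, Purkinje cells and sensory neurons, had 2.796, 3.69, 3.04 and 2.72 FPKM in the dopaminergic libraries, against 3.88, 2.903, 3.41, 4.02 and 3.55 FPKM in whole midbrain. The groups overlapped and the log2 fold change of -0.16 (SE 0.11, adjusted p = 0.181) did not pass the threshold. It was -0.76 as TPM (adjusted p = 0.00196), 0.19 with quantile normalization and 0.18 with a length correction. Prkg2 averaged 1.71 ± 0.425 FPKM in dopaminergic neurons and 2.63 ± 0.313 FPKM in whole midbrain, with a log2 fold change of -0.43 (SE 0.12, adjusted p = 0.00732) that became 0.04 with quantile normalization (adjusted p = 0.794).

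The 12 members under the minimum mean of 1 FPKM over the 9 libraries were Adcy4, Adcy10, Gucy1b2, Gucy2d, Gucy2e, Gucy2f, Gucy2g, Pde4c, Pde6a, Pde6b, Pde6c and Pde11a, and the highest of their means was 0.709 FPKM. In 7 of them at least 1 library was listed at 0, which in such a table can also be a failed estimate. Adcy10, the soluble adenylyl cyclase that bicarbonate activates, had 0.00404, 0.00415, 0.0377 and 0.00968 FPKM in the dopaminergic libraries, against 0.164, 0.03402, 0.133, 0.209 and 0.112 FPKM in whole midbrain. The dopaminergic values were mostly below those of whole midbrain but overlapped with library 2. Adcy4, a cyclase known from endothelium, was at most 0.00652 FPKM in a dopaminergic library and 0.280 to 1.24 FPKM in whole midbrain, beside the endothelial markers given above. For 4 of the 12 (Adcy4, Gucy2e, Gucy2f and Pde6a) the dopaminergic values were all below those of whole midbrain, and Gucy2g and Pde11a had the higher mean in dopaminergic neurons. The share of all genes under that minimum was not counted, so the 4 cannot be set beside it.

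Among the other genes of the pathway, most A-kinase anchoring proteins were lower in dopaminergic neurons under every scaling, while most G protein alpha subunits that act on cyclases were higher as FPKM but not as TPM or with quantile normalization. Of 63 listed genes, 45 were tested, of which 17 were higher in dopaminergic neurons (37.8%, beside 38.3% of all genes), 22 lower (48.9%, beside 36%) and 6 not called. As TPM, 6 were higher, where 17.2% of all genes were higher and 56.4% lower. Of 13 A-kinase anchoring proteins, which tether PKA to places in the cell, 11 were lower, 1, Akap7, was higher and Akap10 was not called, and as TPM 12 were lower and Akap7 was at -0.12 (adjusted p = 0.438). Akap12 averaged 5.09 ± 0.599 FPKM in dopaminergic neurons and 21.5 ± 1.58 FPKM in whole midbrain and Akap7 19.2 ± 1.41 FPKM in dopaminergic neurons and 13.4 ± 0.915 FPKM in whole midbrain, with log2 fold changes of -1.89 (adjusted p = 3.5e-08) for Akap12 and 0.49 (adjusted p = 0.0002) for Akap7. Of 3 PKA inhibitor genes, Pkia and Pkig were higher, also as TPM and with quantile normalization. Pkib was not called as FPKM but was lower as TPM (-0.53, adjusted p = 0.0138). Pkig had 20.3 to 22.1 FPKM in the dopaminergic libraries and 5.89 to 20.2 FPKM in whole midbrain, so its groups nearly met. Pkia averaged 82.9 ± 3.05 FPKM in dopaminergic neurons and 34.1 ± 2.099 FPKM in whole midbrain, with a log2 fold change of 1.26 (adjusted p = 1.3e-07).

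Of the 7 G protein alpha subunit genes that set cyclase activity, 6 were higher as FPKM and Gnai3 was lower. Of all genes tested 38.3% were higher, and 48.2% with a minimum mean of 5 FPKM. Under TPM or quantile normalization Gnaz and Gnai2 remained higher and the other 4 of the 6 did not pass the threshold. Gnaz, an inhibitory subunit insensitive to pertussis toxin, averaged 42.1 ± 5.44 FPKM in dopaminergic neurons and 11.04 ± 1.85 FPKM in whole midbrain, with a log2 fold change of 1.85 (adjusted p = 7.6e-07). Gnai3 averaged 8.097 ± 1.44 FPKM in dopaminergic neurons and 11.9 ± 1.79 FPKM in whole midbrain, with a log2 fold change of -0.50 (adjusted p = 0.00725). Both tested effectors other than PKA were lower, with Rapgef3, which encodes the cAMP-activated exchange factor Epac1, at 0.791 ± 0.211 FPKM in dopaminergic neurons and 4.35 ± 2.15 FPKM in whole midbrain and a log2 fold change of -1.51 (adjusted p = 0.00014). Nos1 and the C-type natriuretic peptide receptor gene Npr2 were lower, Npr2 with 1.91 ± 0.232 FPKM in dopaminergic neurons and 7.21 ± 0.937 FPKM in whole midbrain and a log2 fold change of -1.49 (adjusted p = 5.5e-07). Of the exporters of cyclic nucleotides, Abcc4 and Abcc5 were both lower, Abcc4 with 0.577 ± 0.185 FPKM in dopaminergic neurons and 2.45 ± 0.181 FPKM in whole midbrain and a log2 fold change of -1.13 (adjusted p = 4.5e-06).

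Among 5 genes of PKA-regulated phosphoproteins, Ppp1r1a, Arpp19 and Ensa were higher and Ppp1r1b and Arpp21 lower, of which Arpp19 was at 0.17 as TPM (adjusted p = 0.177). Ppp1r1a, which encodes an inhibitor of protein phosphatase 1, averaged 48.6 ± 2.701 FPKM in dopaminergic neurons and 11.8 ± 4.996 FPKM in whole midbrain, with a log2 fold change of 2.02 (adjusted p = 9.9e-06). Ppp1r1b encodes DARPP-32, the phosphatase inhibitor known from striatal projection neurons, and averaged 1.62 ± 0.582 FPKM in dopaminergic neurons and 14.4 ± 1.18 FPKM in whole midbrain, with a log2 fold change of -2.58 (adjusted p = 1e-07). Of 7 transcription factors and coactivators, Crem and Crtc3 were higher as FPKM but not as TPM, Crtc2 was lower and 4 were not called. Crem averaged 7.06 ± 0.938 FPKM in dopaminergic neurons and 3.88 ± 0.472 FPKM in whole midbrain, with a log2 fold change of 0.72 (adjusted p = 0.00015). Crtc2 averaged 3.299 ± 0.768 FPKM in dopaminergic neurons and 7.11 ± 1.53 FPKM in whole midbrain, with a log2 fold change of -0.91 (adjusted p = 0.00037). On the log2 scale, Pde4dip, whose product binds phosphodiesterase 4D, differed by -0.27 (adjusted p = 0.00479), which turned to 0.28 with a length correction (adjusted p = 0.00351). Prkx, a further catalytic subunit, was on that scale higher by 0.70 (adjusted p = 0.00027), and Pde12 by 0.28 (adjusted p = 0.0248), but as TPM they were at 0.19 and -0.25 and not called.

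**Figure D5:**
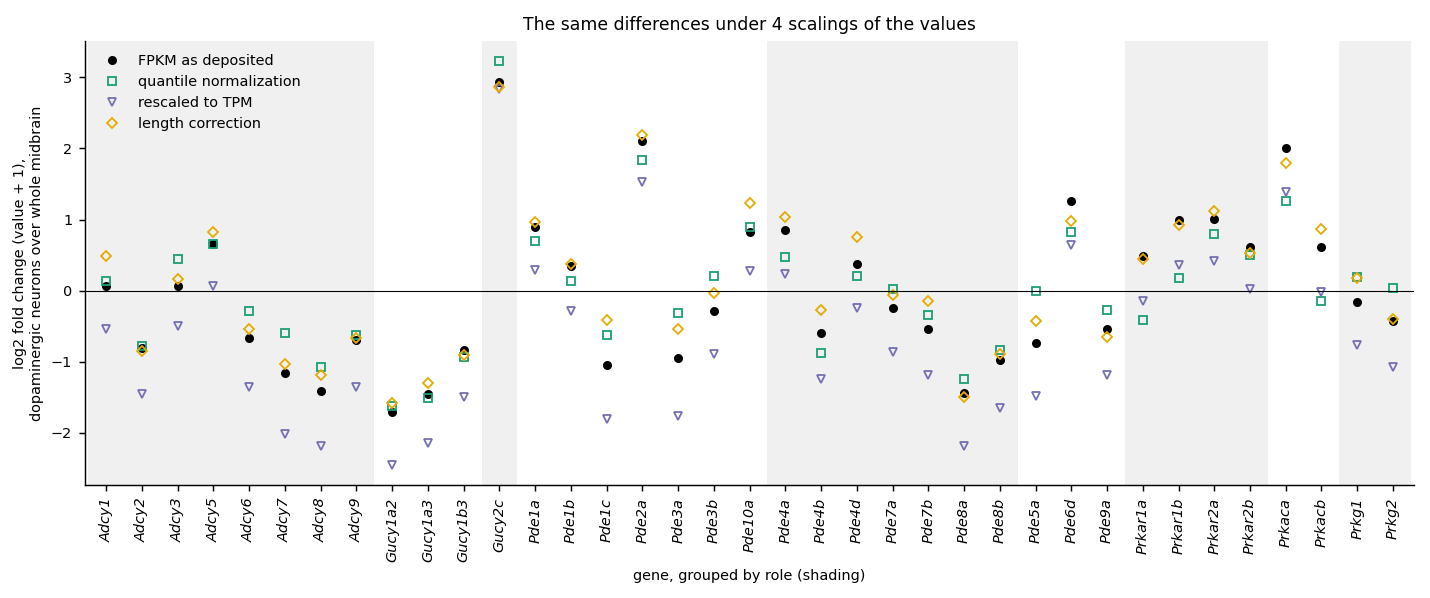
Log2 fold change, dopaminergic neurons over whole midbrain, of the 37 tested members under 4 treatments of the values: FPKM as deposited, quantile normalization, rescaling to TPM and a correction for exonic length. The TPM points lie below those as deposited throughout, while Gucy2c, Pde2a, Prkaca, Pde6d and Prkar1b stay above 0 and the 3 soluble guanylyl cyclase subunits stay below 0 in all 4.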

How the data were processed

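The deposited FPKM of 24487 genes in 4 dopaminergic and 5 whole midbrain libraries were made by the authors with TopHat2 2.0.8 and Cufflinks 2.1.1 on mm10, per the submitters' processing notes. Annotation, options and strand handling were not given in the sources that were used here. Whole midbrain values carry up to 10 significant digits and dopaminergic values up to 6, a difference of form that no label explains and that cannot be told apart from the groups. Members were the symbols matching the pattern for the gene families, and members and gene lists were chosen with earlier results of these data known. limma 3.58.1 (R 4.3.3) fitted log2(FPKM + 1) for the 13106 genes that averaged 1 FPKM or more. The two-sided moderated test allowed the variance to follow the mean, had 7 residual degrees of freedom and about 3 from the prior, and used Benjamini-Hochberg adjustment at 0.05; the script was tested on simulated data. A length correction by loess (span 0.5), other pseudocounts, filters and scalings, a replicate block and leaving out each library were the alternatives. Every library is given for the members of each class that differed at least 2-fold (up to 4) and for the most abundant member in each group; for the other pathway genes, the largest called change in each direction per group. Coordinates are the gene spans deposited with the FPKM, with starts counted from 1. Strand and exonic length are from GENCODE M21, matched for all 49 members, and exonic overlaps of at least 100 bases are named. Ratios and shares have no test. Summaries used Python 3.11.15, NumPy 2.4.6, pandas 2.3.3 and matplotlib 3.10.9.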

Additional observations from a re-analysis of the deposited data

Results flagged for a closer look

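In 16 of 98 groups of libraries (49 members in each of the 2 groups), 1 library lay far from the others of its group. The threshold is nominally passed by about 1 in 20 groups of independent, normally distributed values. Members share the same libraries, and some have very low FPKM, so the 16 cannot be judged against that rate. Of these, 4 were dopaminergic library 3 and 8 were whole midbrain library 2, the library that also stood apart over all genes.

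In dopaminergic library 3, Pde1a was low at 23.5 FPKM beside 25.6 to 25.8 in the others of the group, and 3 members with a mean under 1 FPKM were high, namely Pde11a at 0.851 FPKM beside 0.480 to 0.529, Adcy10 at 0.0377 beside 0.00404 to 0.00968, and Gucy2d at 0.00459 where the others were listed at 0. Dopaminergic library 2 had the highest Adcy1 value, 9.88 FPKM beside 7.86 to 8.18. Dopaminergic library 1 had 0.298 FPKM of Pde4c, where the others had at most 0.0158.

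Whole midbrain library 2 was below its group for Adcy8 (4.85 FPKM beside 6.50 to 7.09), Adcy9 (6.97 beside 11.7 to 13.3), Pde4a (15.7 beside 25.9 to 27.8), Prkar2a (10.4 beside 14.1 to 15.2) and Prkaca (47.5 beside 70.0 to 79.1). It was above its group for Pde4b (36.6 FPKM beside 27.7 to 30.0), Pde9a (9.23 beside 4.26 to 5.09) and Prkar1b (151.9 beside 96.6 to 105.4). Whole midbrain library 3 was above its group for Pde1b (17.9 FPKM beside 15.4 to 15.9) and Gucy2g (0.132 beside 0.0545 to 0.0694). Without whole midbrain library 2 each of the 8 members named for it kept its call.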

How the results depend on the processing

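Gucy2c, Pde2a, Prkaca, Pde6d, Prkar1b and the 3 soluble guanylyl cyclase subunits kept their direction and call under all 18 alternatives. Prkar1b did so narrowly, with a lowest log2 fold change of 0.18 and a largest adjusted p of 0.0492. Counts moved with the scaling and the filter. Rescaled to TPM, 5 members were higher, 3 at least 2-fold higher, 17 at least 2-fold lower, and 6 other pathway genes higher, where of all genes 17.2% were higher, 6% at least 2-fold higher and 33.3% at least 2-fold lower. With quantile normalization 3 were at least 2-fold higher, with the filter raised to a mean of 5 FPKM 9 were lower and 3 at least 2-fold lower, and with a pseudocount of 5 FPKM 2 were at least 2-fold lower. The filter and the pseudocount do so by construction, since they remove or shrink low genes. Signs turned as TPM for Adcy1 (-0.54), Adcy3 (-0.50), Pde1b (-0.28), Pde4d (-0.24), Prkar1a (-0.15) and Prkacb (-0.02). They turned with quantile normalization for Pde3b (0.21), Pde7a (0.02), Prkar1a (-0.41), Prkacb (-0.15), Prkg1 (0.19) and Prkg2 (0.04), and with the length correction for Prkg1 (0.18). The cause was not tested. Leaving out 1 library at a time, Adcy3 ran from -0.01 to 0.12, and the counts of higher and lower members were 15 each time and 16 to 19. Same-numbered libraries did not deviate together (correlations of -0.050 to 0.019, and none closest to its own number), so the replicate numbers gave no sign of a pairing. With so few libraries such correlations cannot exclude a pairing. With the replicate block 15 members were higher and 17 lower, beside 4554 and 4355 of all 13106 genes, Pde3b (adjusted p = 0.0518) and Pde7a (adjusted p = 0.0668) losing their calls. FPKM carry no counts, so counting error cannot be given, and it is largest for the members under 1 FPKM.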

Other observations

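The genes of the peptides that act on receptor guanylyl cyclases were looked up after the values of the receptors had been seen. Guca2a and Guca2b, which encode guanylin and uroguanylin, the ligands of the Gucy2c product, were listed at 0 in all 5 whole midbrain libraries, and in the dopaminergic libraries Guca2a was above 0 in library 3 alone (0.0908 FPKM) and Guca2b in libraries 1 and 3 (0.209 and 0.0407 FPKM). Nppc, the gene of C-type natriuretic peptide, had 6.83, 5.26, 6.16 and 8.30 FPKM in the dopaminergic libraries, against 2.16, 1.95, 2.70, 2.03 and 2.53 FPKM in whole midbrain. All 4 dopaminergic values were above all 5 of whole midbrain, and the log2 fold change was 1.21 (SE 0.12, limma adjusted p = 9.2e-06), opposite in sign to that of its receptor gene Npr2. Nppa ranged from 0.164 to 1.36 FPKM in the dopaminergic libraries and from 0.652 to 1.35 FPKM in whole midbrain, and Nppb was above 0 in 1 library of whole midbrain.

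By mean level among all 24487 genes, Prkar1a ranked 319th in dopaminergic neurons and 246th in whole midbrain, although its FPKM was higher in dopaminergic neurons. Prkacb likewise ranked 540th and 500th. Prkaca ranked 328th in dopaminergic neurons and 813th in whole midbrain, Pde2a 1659th and 5499th, and Gucy2c 4449th and 13318th.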
